A study of Mus musculus with 32 samples.

Results

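The complement components and receptors examined here were 9 mouse genes, C1qa, C1qb, C1qc, C1s1, C4b, C3, Cfb, C3ar1 and C5ar1, chosen by symbol and found as 9 of the 39676 gene rows of the count table. They were followed in 32 tumors of 2 transplanted murine mesothelioma models, each grown at 2 sites, with 8 tumors from separate mice in each of the 4 groups. AB1 tumors grew in BALB/c mice after inoculation of 500000 cells, and AE17 tumors grew in C57BL/6 mice after inoculation of 1000000 cells. In each model the cells were placed either in the pleural space, giving the IPL group, or under the skin of the right flank, giving the SC group. All mice were untreated females aged 8 to 10 weeks, and the tumors were taken on day 10, with the lungs and neighboring tissue cut away from IPL tumors. Each model is therefore 1 cell line in 1 mouse strain, and cell line, strain and number of cells go together between the models and cannot be told apart, nor can sequencing lane within a site, where no lane held tumors of both models. The RNA came from whole tumors, in which a lower level from fewer cells of a type and a lower level per cell cannot be told apart.

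Complement is a cascade of plasma and tissue proteins that tags surfaces for phagocytes, recruits leukocytes and can perforate membranes. The classical route starts when C1q, built from the chains of C1qa, C1qb and C1qc, binds a surface and its attached proteases C1r and C1s cut C4 and then C2, whereas the alternative route amplifies cleavage of C3 through factor B. The released peptides C3a and C5a act on the receptors C3aR and C5aR1. Tissue macrophages are a major source of C1q, while liver cells, fibroblasts and activated myeloid cells are known sources of C3, C4 and the C1 proteases.

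Sequencing of polyadenylated RNA gave 15432258 to 20649645 counts assigned to genes per tumor, and each of the 9 genes held between 48 and 31001 counts in every tumor. Levels are given as counts per 1000000 counts of a library (CPM) after scaling of the library totals by the trimmed mean of M-values (TMM). As a check of the labels, the 4 mesothelial markers with a row were low, with medians no higher than 4.40 CPM in any group, and AB1 IPL replicate 2 stood apart with 31.8 CPM of Upk3b and 24.2 CPM of Lrrn4. Hepatocyte markers summed to at most 0.269 CPM in AB1 and 1.3 CPM in AE17 tumors. The AB1 IPL tumors were all run in lane 3, against 6 AB1 SC tumors in lane 2 and 2 in lane 3. In AE17 the 8 SC tumors were in lane 1, with 3 IPL tumors in lane 1 and 5 in lane 2, so each site comparison is also largely a comparison of lanes, and the fold changes within 1 lane are given after the pooled values of each model.

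The genes lie on 4 chromosomes, all on the minus strand of GRCm38. The 3 C1q genes are neighbors at chr4:136880129-136886187 (C1qb), chr4:136889804-136893065 (C1qc) and chr4:136895917-136898803 (C1qa). The regions upstream of C1qb and C1qc are shown because their levels moved together in every group, and that of C3 because its level spread widely among the tumors. No RefSeq start was available for C1qa, C4b and Cfb, so these were not searched. Each line is the 250 bases before the RefSeq start in GRCm38.p6, read 5′ to 3′ on the gene's own strand, with the match to a searched motif in capitals. The RefSeq start of C1qc lies inside the C1qc coordinates given above, so its window partly overlaps that gene.
C1qb, chr4:136886201-136886450, minus strand: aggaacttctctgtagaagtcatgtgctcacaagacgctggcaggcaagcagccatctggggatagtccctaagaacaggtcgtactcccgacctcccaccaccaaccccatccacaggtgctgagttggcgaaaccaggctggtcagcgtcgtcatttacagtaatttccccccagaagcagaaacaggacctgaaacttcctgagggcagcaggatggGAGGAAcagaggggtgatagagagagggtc
C1qc, chr4:136892915-136893164, minus strand: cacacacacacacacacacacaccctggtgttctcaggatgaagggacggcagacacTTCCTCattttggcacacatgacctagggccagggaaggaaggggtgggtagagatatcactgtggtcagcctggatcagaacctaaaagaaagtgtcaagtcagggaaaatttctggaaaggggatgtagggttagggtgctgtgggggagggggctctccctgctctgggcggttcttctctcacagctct
C3, chr17:57228137-57228386, minus strand: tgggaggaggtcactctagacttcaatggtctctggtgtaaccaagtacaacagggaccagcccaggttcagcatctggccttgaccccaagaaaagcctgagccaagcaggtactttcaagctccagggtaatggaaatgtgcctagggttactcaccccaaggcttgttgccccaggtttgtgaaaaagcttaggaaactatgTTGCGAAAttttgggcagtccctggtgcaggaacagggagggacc
The capitals mark GAGGAA, a core bound by the myeloid factor PU.1, on the forward strand of C1qb at bases -30 to -25 and on the reverse strand of C1qc at -193 to -188. In C3 they mark TTGCNNAA, a C/EBP core, at -45 to -38. On both strands GAGGAA was found in 23.3% and TTGCNNAA in 9.6% of 32851 RefSeq promoters of this length, which makes each match a common one. TTCNNNGAA (7.0% of promoters), TGANTCA (6.7%) and GGGNNTTCC (5.0%) were searched in the same way. C1s1 has 2 RefSeq starts, of which 1 held TTGCNNAA at -242 to -235 and the other held none of the motifs, C3ar1 held TGANTCA at -22 to -16, and the C5ar1 window held none of the 5 motifs.

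In AB1, IPL tumors had lower transcript levels of C1s1, C3ar1, C1qa and Cfb than SC tumors, at 0.525, 0.731, 0.736 and 0.53 times the SC level. The quasi-likelihood test of edgeR, with an adjusted p under 0.05 after Benjamini-Hochberg correction over 14645 genes, thus placed 4 of 9 genes lower at the IPL site. No member was higher, also at an unadjusted p under 0.05 and by DESeq2 and limma voom with sample quality weights, or weighted limma voom (0 of 9 each). Over all genes tested 10.7% were lower and 12.3% higher in IPL tumors. The median log2 fold change of the 9 genes was -0.44, beside -0.00 for all genes. The plot of levels by tumor shows all 4 groups.

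**Figure D1:**
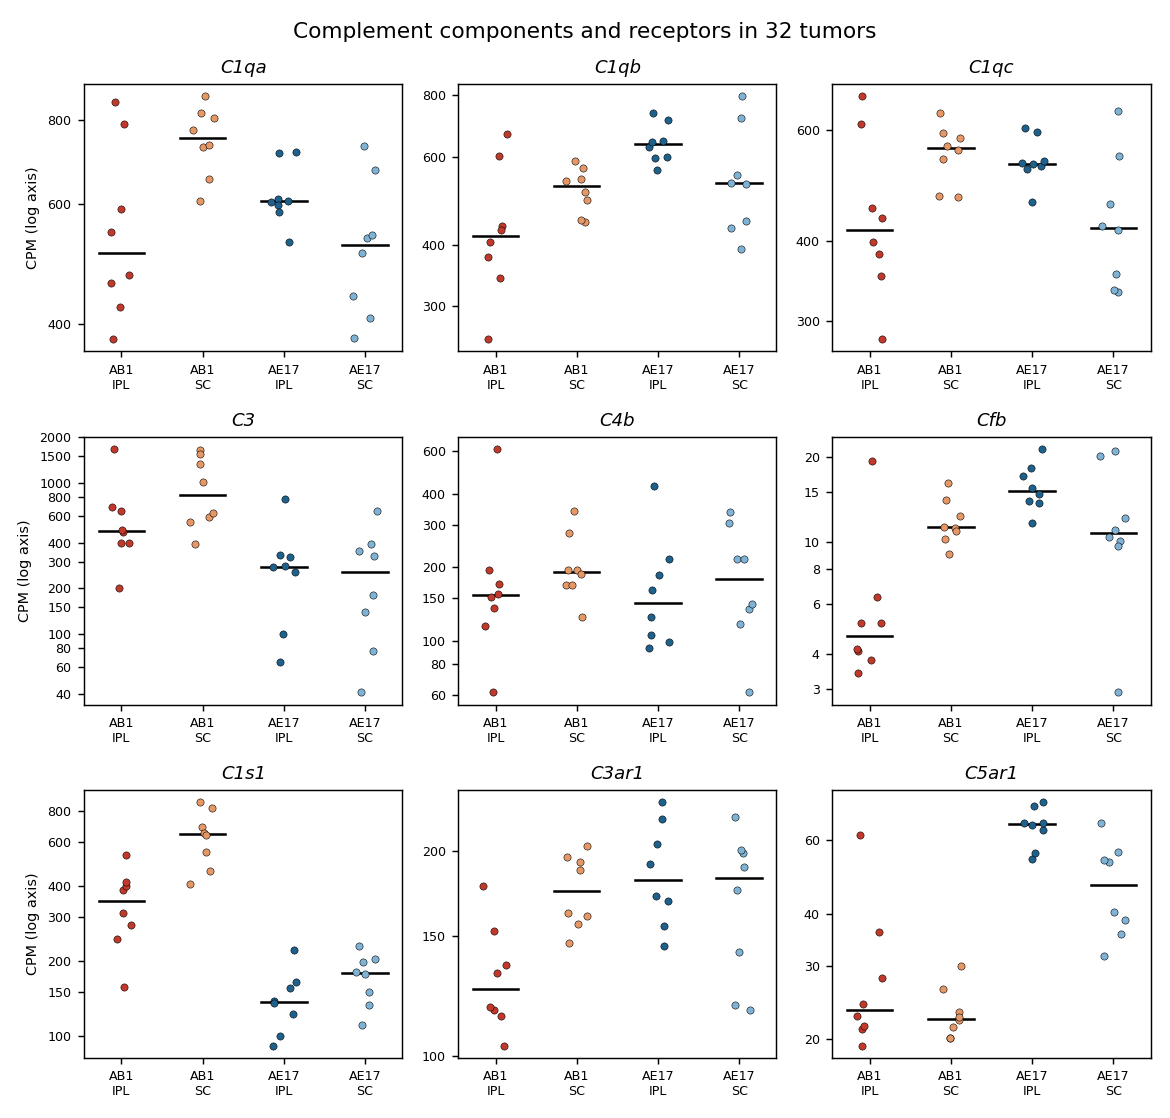
Level of each of the 9 genes in CPM (log axis) in the 8 tumors of each group, points being tumors and bars group medians. In AB1 the IPL points of C1s1, C3ar1 and Cfb lie mostly below the SC points, and 1 AB1 IPL tumor lies above the other 7 for every gene.

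The C1q chains carry the recognition heads of the classical route. C1qa ran from 379.2 through a median of 509.2 to 849.2 CPM in AB1 IPL tumors and from 607.5 through 753.3 to 868.6 CPM in AB1 SC tumors. Of the 8 IPL tumors, 6 lay below every SC tumor, while replicates 2 and 4 lay within the SC range. The log2 fold change was -0.44 ± 0.15 (SE; edgeR, adjusted p = 0.0418).

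C1qb ran from 257.6 through 416.6 to 668.6 CPM at the IPL site and from 443.7 through 524.3 to 589.9 CPM at the SC site, and C1qc from 280.3 through 417.2 to 679.1 CPM and from 469.9 through 561.6 to 638.2 CPM. For both chains the same 6 IPL tumors lay below every SC tumor, and replicate 2 lay above all of them, as replicate 4 did for C1qb. Neither passed the test in edgeR, with log2 fold changes of -0.27 ± 0.15 for C1qb (SE; adjusted p = 0.226) and -0.33 ± 0.15 for C1qc (SE; adjusted p = 0.118). The 95% intervals of -0.56 to 0.03 and -0.62 to -0.04 include the change seen for C1qa.

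C1s1 encodes C1s, the protease of the C1 complex that cuts C4 and C2. It ran from 157.9 through 349.9 to 535.2 CPM in AB1 IPL tumors against 408.8 through 649.4 to 870.4 CPM in SC tumors. Again 6 IPL tumors lay below every SC tumor. Its log2 fold change of -0.93 ± 0.22 (SE; edgeR, adjusted p = 0.00452) was close in size to that of Cfb. Reads can be shared with its near copy C1s2, since 24.3% of the 50-base windows of the C1s1 transcript occur in C1s2, which fell alongside it (-0.90 ± 0.22, adjusted p = 0.00643).

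C4b encodes complement C4, which C1s cleaves. Its level ran from 61.32 through 153.4 to 614.3 CPM in AB1 IPL tumors and from 125.6 through 191.6 to 342.3 CPM in SC tumors. The groups overlapped widely, and the log2 fold change was -0.09 ± 0.36 (SE; edgeR, adjusted p = 0.885), with a 95% interval of -0.79 to 0.61 that leaves room for changes in either direction. Of its 50-base windows 35.2% also occur in C4a.

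C3 is the component on which all routes converge. It ran from 201.0 through 480.4 to 1670 CPM at the IPL site and from 389.9 through 824.6 to 1634 CPM at the SC site. Only the lowest IPL tumor, replicate 8, lay below every SC tumor. At -0.67 ± 0.39 (SE; edgeR, adjusted p = 0.236) the difference did not pass the test, with a 95% interval of -1.43 to 0.10.

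Cfb encodes factor B, the protease of the alternative C3 convertase. In CPM, without regard to the exon bases it shares, it was the scarcest of the 9. It ran from 3.433 through 4.65 to 19.39 CPM in AB1 IPL tumors and from 9.083 through 11.23 to 16.2 CPM in SC tumors. In 7 IPL tumors it lay below every SC tumor, with a highest value of 6.36 CPM, and in replicate 2 it lay above all of them. The log2 fold change was -0.92 ± 0.31 (SE; edgeR, adjusted p = 0.0401). Only 20.5% of its exon bases lie in no other annotated gene, because the readthrough gene Gm20547 spans Cfb and C2. The Gm20547 row held 0 counts in all 32 tumors, but 0.0% of its exon bases lie outside other genes. This row therefore cannot show whether the readthrough was expressed. Over its unshared exon bases Cfb lay above C5ar1 in AB1 SC tumors (20.56 against 9.034 CPM per kb) but not in AB1 IPL tumors (11.13 against 11.43).

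C3ar1 encodes the C3a receptor of myeloid cells. It ran from 103.6 through 125.4 to 177.5 CPM in AB1 IPL tumors and from 146.7 through 174.9 to 203.8 CPM in SC tumors. The lower 6 IPL tumors lay below every SC tumor, and the log2 fold change was -0.45 ± 0.11 (SE; edgeR, adjusted p = 0.00533). C5ar1, the receptor of the chemoattractant C5a, had a positive fold change that came largely from replicate 2, with 19.28 through 23.46 to 61.9 CPM at the IPL site and 20.07 through 22.36 to 29.88 CPM at the SC site. The groups overlapped, and its log2 fold change of 0.31 ± 0.21 (SE; edgeR, adjusted p = 0.305) did not pass.

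The AB1 calls changed with the lane and with single tumors. Within lane 3, where the 8 IPL tumors met only 2 SC tumors, the log2 fold changes kept their sign at -0.81 for C1s1, -0.80 for Cfb, -0.41 for C1qa and -0.27 for C3ar1, but none passed in edgeR (adjusted p = 0.37, 0.63, 0.59 and 0.61). Of all genes 0.994% were called lower within lane 3. The other members were at -0.23 for C1qb, -0.26 for C1qc, -0.41 for C3, 0.44 for C5ar1 and 0.38 for C4b within lane 3 (adjusted p of 0.728 or more), so that C4b alone differed in sign from its pooled value. AB1 IPL replicate 2 was the highest of its group for 9 of 9 genes, and also for the summed macrophage markers (1370 CPM, the next tumor 1020 CPM) and the summed fibroblast markers (35100 CPM, the next 25400 CPM). Without it 6 of 9 genes were lower at the IPL site, against 10.6% of all genes, with C3 at -1.04 (adjusted p = 0.0276), C1qc at -0.42 (adjusted p = 0.0232) and Cfb at -1.39 (adjusted p = 2e-05). C4b went to -0.57 (adjusted p = 0.0901) and C5ar1 to 0.07 (adjusted p = 0.712) without it. C1s1 and C3ar1 were called whichever of the 16 AB1 tumors was left out, whereas the calls of C1qa and Cfb were lost in 12 and 14 of the 16 omissions.

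Markers of several leukocytes also differed between the AB1 sites. Of 11 macrophage markers on the list, 8 had a row and were tested in AB1, and 4 of these were lower at the IPL site, among them Trem2 (log2 fold change -0.41, edgeR adjusted p = 0.0174) and Mrc1 (-0.94, adjusted p = 0.00845). Their summed level ran from 859 to 1370 CPM in AB1 IPL tumors and from 1040 to 1670 CPM in SC tumors, and none of the 8 was at 0. The mast cell list was lower in 3 of 3 tested genes (median log2 fold change -2.04, sums of 1.9 to 43.5 CPM against 51.7 to 120 CPM) and the T cell list in 4 of 4 (median -1.29, sums of 8.66 to 39.6 CPM against 42.3 to 81.2 CPM), while the neutrophil genes S100a8 and S100a9 were higher by 3.81 and 3.97 (edgeR, adjusted p = 0.0097 and 0.0101) and the neutrophil receptor gene Csf3r was lower (-0.80, adjusted p = 0.0154), out of 5 neutrophil genes tested. The B cell genes Cd79a (0.84, adjusted p = 0.00478) and Ms4a1 (2.19, adjusted p = 0.0484) were higher, both of those tested. The part of these 4 lists in the complement differences was not tested. When the mean log2 level of the macrophage markers entered the AB1 fit as a covariate, the log2 fold changes were 0.02 for C1qa, -0.13 for C3ar1, -0.25 for C1s1 and -0.09 for Cfb, and C5ar1 was the only member past the threshold (0.83, adjusted p = 0.039), against 4.72% of all genes called higher in that fit. Fibroblast markers moved the opposite way, with 4 of 5 higher at the IPL site and sums of 13100 to 35100 CPM against 11000 to 14400 CPM. Skeletal muscle markers rose too, 6 of 7 being higher, with sums of 102 to 4120 CPM against 52.5 to 432 CPM. Also higher were the fat gene Adipoq (1 of 3 tested) and the endothelial genes Tek and Cdh5 (2 of 5). Of 2 cardiac muscle genes tested, Tnnt2 was higher and Tnni3 lower. With scores of muscle, fat and lung markers as covariates C1s1 was at -1.03 (adjusted p = 0.082) and C3ar1 at -0.14 (adjusted p = 0.48).

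In AE17 C5ar1 alone passed the test by edgeR, 1 of 9 higher at the IPL site against a background of 2.6% of 14668 genes higher and 3.13% lower. No member was lower, also at an unadjusted p under 0.05 and by DESeq2 and weighted limma voom (0 of 9 each). Weighted limma voom called 5 of 9 higher, C5ar1 (0.59), Cfb (0.49), C1qc (0.40), C1qb (0.31) and C1qa (0.31), with adjusted p of 0.00376 to 0.0402, in a fit that called 14.1% of all genes higher, and DESeq2 called 1. The median log2 fold change by edgeR was 0.23 over the 9 genes and 0.00 over all genes.

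C5ar1 ran from 54.24 through 65.72 to 74.19 CPM in AE17 IPL tumors and from 31.64 through 46.9 to 66.22 CPM in SC tumors. All 8 IPL tumors lay above the SC median and 3 lay above every SC tumor. The log2 fold change of 0.47 ± 0.13 (SE; edgeR, adjusted p = 0.0491) sat just under the threshold and was lost in 13 of 16 omissions of a tumor. Within lane 1, which held 3 IPL and 8 SC tumors, it was 0.55 (adjusted p = 0.28), in a fit that called 0.065% of all genes higher.

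The C1q chains of AE17 had a direction opposite to AB1, without passing the test by edgeR. C1qa ran from 527.2 through 606.6 to 717.1 CPM at the IPL site and from 381.0 through 522.3 to 731.4 CPM at the SC site. C1qb ran from 566.0 through 636.6 to 735.9 CPM and from 391.4 through 531.9 to 798.1 CPM, and C1qc from 461.3 through 530.9 to 604.5 CPM and from 333.2 through 420.3 to 641.6 CPM. For each chain all 8 IPL tumors lay above the SC median, yet the SC tumor with the highest level exceeded them all. Their log2 fold changes were 0.24, 0.23 and 0.30 (edgeR, adjusted p = 0.227, 0.28 and 0.138). Within lane 1 they were 0.35, 0.35 and 0.40 (adjusted p = 0.385, 0.41 and 0.346).

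C3 spanned more than the other members within each AE17 group, from 64.96 through 277.4 to 775.6 CPM at the IPL site and from 40.81 through 254.2 to 646.7 CPM at the SC site. C4b ran from 93.28 through 143.1 to 432.6 CPM and from 61.22 through 179.1 to 339.5 CPM. With this spread the site differences of 0.17 ± 0.54 for C3 and -0.10 ± 0.37 for C4b (SE; edgeR, adjusted p = 0.881 and 0.891) had 95% intervals of -0.89 to 1.22 and -0.82 to 0.61. Cfb ran from 11.69 through 15.1 to 21.31 CPM and from 2.924 through 10.7 to 21 CPM, C1s1 from 91.56 through 137.5 to 221.4 CPM and from 110.6 through 179.2 to 231.1 CPM, and C3ar1 from 145.3 through 181.7 to 236.1 CPM and from 116.9 through 182.6 to 224.9 CPM. All 3 overlapped between the sites, at log2 fold changes of 0.38, -0.28 and 0.14 (edgeR, adjusted p = 0.398, 0.327 and 0.594). Within lane 1 the fold changes were 0.08 for C3, -0.17 for C4b, 0.64 for Cfb, -0.24 for C1s1 and 0.38 for C3ar1, none past the threshold (adjusted p of 0.375 or more) and all of the pooled sign. The sums of the 8 macrophage markers, 1120 to 1370 CPM in IPL and 1030 to 1370 CPM in SC tumors, overlapped over most of their range, while 3 markers of other lists passed in AE17 by edgeR: Ms4a2 of mast cells was lower at the IPL site (-1.51, adjusted p = 0.0404), and Tnnt2 of cardiac muscle (1.49, adjusted p = 0.0195) and Cd79a of B cells (4.07, adjusted p = 0.0338) were higher. Cd79a was at 41.8 and 28.3 CPM in 2 IPL tumors, with a group median of 1.29 CPM.

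**Figure D2:**
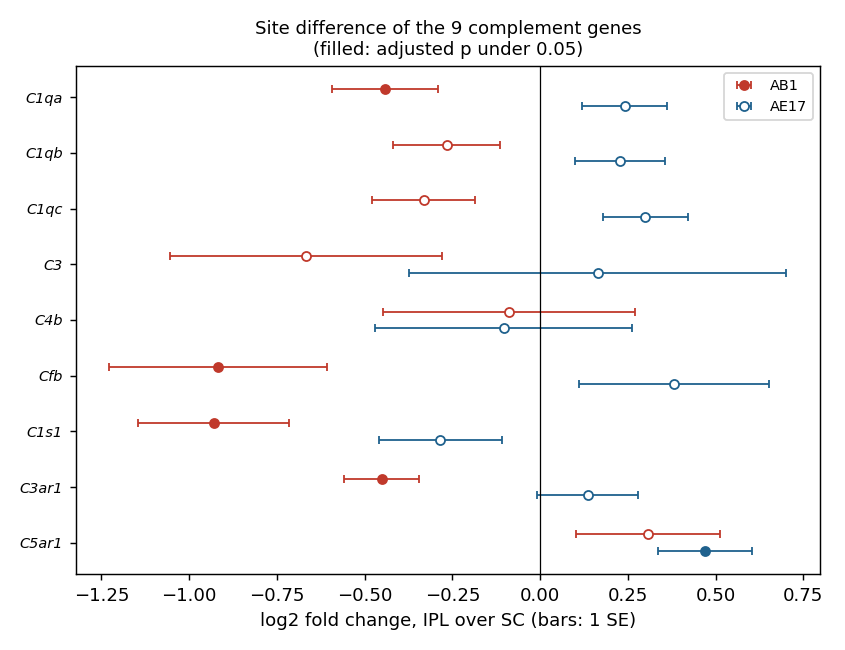
Log2 fold change of IPL over SC tumors for the 9 genes in AB1 and AE17 by edgeR, with bars of 1 SE and filled points for an adjusted p under 0.05. C1qa, C1qb, C1qc, C3, Cfb and C3ar1 lie below 0 in AB1 and above 0 in AE17, while C5ar1 lies above 0 in both models.

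Whether the site effect differed between the models was tested with an interaction term over all 32 tumors. The site effect was more negative in AB1 for Cfb (-1.28, adjusted p = 0.032), C1qa (-0.67, adjusted p = 0.0179), C1qc (-0.61, adjusted p = 0.0264) and C3ar1 (-0.57, adjusted p = 0.0282) by edgeR. That is 4 of 9 members, against 8.62% of 15681 genes more negative and 11.9% more positive. No member had a more positive effect in AB1, also at an unadjusted p under 0.05 and by DESeq2 and weighted limma voom (0 of 9 each). For C1s1, called in AB1 and not in AE17, the difference itself did not pass (-0.63, adjusted p = 0.123), nor did it for C5ar1 (-0.14, adjusted p = 0.739). C1qa and C1qc were called whichever of the 32 tumors was left out, C3ar1 was lost without AE17 IPL replicate 7 (adjusted p = 0.0508), and Cfb was lost in 5 of the 32 omissions. With lane as a covariate 0 of 9 were called, against 0.37% of all genes called more negative, and the differences were -1.37 for Cfb, -0.70 for C1qa, -0.60 for C1qc and -0.58 for C3ar1 (adjusted p = 0.251, 0.224, 0.3 and 0.225).

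Per kilobase of exon, the C1q chains were the most abundant of the 9 in every group. C1qa averaged 541.7, 720.1, 597.1 and 507.2 CPM per kb in the IPL and SC tumors of AB1 and then in those of AE17, and C1qb 404.2, 475.2, 589.8 and 506.0 CPM per kb. C1qc came next in every group, from 227.2 to 285.9 CPM per kb. These values divide by all 1931 exon bases of C1qc, whereas its longest coding transcript has 1203 bases. Its distance from C1qb thus depends on the length used. C3 and C1s1 followed, C3 at 120.8 and C1s1 at 109.3 CPM per kb in AB1 IPL tumors against 187.1 and 203.9 CPM per kb in AB1 SC tumors, differences inside the spread of C3. Over the exon bases it does not share C1s1 had 134.0 and 249.8 CPM per kb in AB1, above C3 at both sites, so the order of these 2 genes depends on the length used. C4b and C3ar1 lay between 30.53 and 43.43 CPM per kb, C5ar1 between 9.034 and 25.2 CPM per kb, and Cfb came last with 2.281 to 5.584 CPM per kb, but over the exon bases it does not share with another gene it had 11.13 to 27.25 CPM per kb, above C5ar1 in all groups but AB1 IPL.

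Between the models the clearest differences were in C1s1 and C5ar1. These comparisons use the tumors of the site comparisons again. Among SC tumors, 3 of 9 genes were higher in AB1 (28.6% of 15681 genes were higher) and 1 of 9 was lower (29.7% were lower), shares close to or under the background for both directions. C1s1 was 3.66 times as high in AB1 (log2 fold change 1.87, edgeR adjusted p = 3.57e-09) and C5ar1 0.49 times as high (-1.03, adjusted p = 1.35e-05), with no overlap between the 8 AB1 and the 8 AE17 SC tumors for either gene. The share of all genes without overlap between the models was not determined. C3 was higher in AB1 by 1.83 (adjusted p = 0.00239) and C1qa by 0.49 (adjusted p = 0.0037).

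Among IPL tumors 1 of 9 genes was higher in AB1 (31.6% of genes were higher) and 4 of 9 were lower (31.8% were lower). C1s1 remained higher by 1.24 (edgeR, adjusted p = 4.08e-06), with 7 AB1 tumors above every AE17 tumor. Lower in AB1 were Cfb (log2 fold change -1.32, adjusted p = 0.000381), C5ar1 (-1.17, adjusted p = 1.41e-06), C1qb (-0.58, adjusted p = 0.000913) and C3ar1 (-0.54, adjusted p = 0.000643). For C5ar1 and Cfb 7 AB1 tumors lay below every AE17 tumor, the exception being replicate 2 for both.

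The proportion of the C1q chain transcripts differed between the models, a comparison chosen after the values were seen. Of all genes tested by edgeR, 58.3% differed between the models at the SC and 63.4% at the IPL site. The ratio of C1qa to C1qb in CPM was 1.29 ± 0.15 in AB1 IPL, 1.45 ± 0.057 in AB1 SC, 0.967 ± 0.042 in AE17 IPL and 0.963 ± 0.041 in AE17 SC tumors (mean ± SD, n = 8 each). On the log2 scale AB1 SC exceeded AE17 SC tumors by 0.588 with no overlap (exact two-sided permutation test, p = 0.000155, the smallest it can give, 0.000465 adjusted over 12 ratio tests), and AB1 IPL exceeded AE17 IPL tumors by 0.41 (exact permutation, adjusted p = 0.00186). Between the sites the ratio was lower in AB1 IPL than in AB1 SC tumors by a log2 difference of -0.172 (exact permutation, adjusted p = 0.00808) and 0.007 apart in AE17 (p = 0.825). The ratio of C1qa to C1qc was lower at the IPL site in both models, by log2 differences of -0.112 in AB1 and -0.063 in AE17 (exact permutation, adjusted p = 0.016 and 0.0341).

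AB1 IPL replicate 6 stood apart with a C1qa to C1qb ratio of 0.97, the next AB1 IPL tumor being at 1.25. Without it the log2 site difference in AB1 was -0.114 (exact permutation, p = 0.00808, adjusted p = 0.0139), and the groups of the 2 models no longer overlapped at the IPL site, with a log2 difference of 0.468. None of the 50-base windows of the 3 C1q transcripts occurs in another gene. The ratio of C1qc to C1qb also separated the models without overlap at both sites, by 0.418 among SC and 0.288 among IPL tumors on the log2 scale (exact permutation, adjusted p = 0.000465 for each). Such a separation was not particular to C1q. Ratios of near copies that share reads also lay apart without overlap at both sites, C1s2 to C1s1 by 0.361 and 0.402 and C1rb to C1ra by 0.165 and 0.132. That of C4a to C4b did so at the IPL site (0.174) but not at the SC site (0.111).

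**Figure D3:**
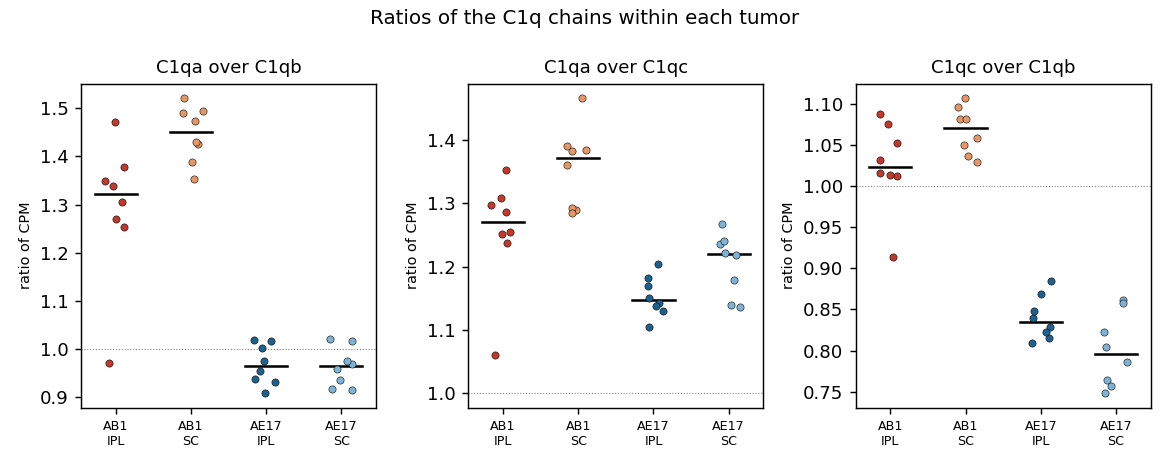
Ratios between the CPM values of the C1q chains in each tumor by group, points being tumors and bars group medians. The C1qa to C1qb ratio of AE17 tumors stays between 0.908 and 1.02, that of AB1 SC tumors between 1.35 and 1.52, and the low AB1 IPL tumor at 0.97 is replicate 6.

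Within each group the 9 genes were compared with each other and with 2 marker lists over 8 tumors, 216 relations of log2 CPM in all. By exact two-sided permutation with adjustment over them, 61 passed with Pearson's r and 32 with Spearman's rho; a relation is called here by r. The C1q chains rose and fell together in all 4 groups, with r of 0.908 to 0.987 for C1qa and C1qb, 0.92 to 0.985 for C1qa and C1qc and 0.937 to 0.985 for C1qb and C1qc. Their rho was 0.619 to 0.952, 0.762 to 0.976 and 0.905 to 0.929. By rho C1qb and C1qc passed in all 4 groups (exact permutation, adjusted p = 0.0254 to 0.0365), while C1qa did not pass with C1qb in AB1 IPL (adjusted p = 0.137) and AE17 IPL tumors (adjusted p = 0.253) or with C1qc in AE17 IPL tumors (adjusted p = 0.137). Without the 2 tumors farthest from the median r was 0.613 to 0.971, 0.87 to 0.991 and 0.898 to 0.957.

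C3 and C4b passed in 3 groups, with r from 0.653 to 0.932 and rho from 0.5 to 0.905 over all 4. In AB1 IPL tumors this relation rests on the 2 farthest tumors, since r went from 0.932 to 0.222 without them. C3 and C1s1 passed in AB1 SC (r = 0.897, rho = 0.857), AE17 IPL (r = 0.909, rho = 0.714) and AE17 SC tumors (r = 0.839, rho = 0.905), and stayed at 0.671 to 0.843 without the 2 farthest tumors. In AB1 IPL tumors they did not pass (r = 0.753, rho = 0.357), and r was -0.219 without the 2 farthest tumors. C3 and the receptor of its cleavage product, C3ar1, passed in 0 groups (r of -0.016 to 0.498, rho of -0.071 to 0.667).

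The number of pairs past the threshold differed between the groups, 18 of 36 in AB1 IPL, 11 in AB1 SC, 5 in AE17 IPL and 12 in AE17 SC tumors, with median r of 0.79, 0.675, 0.486 and 0.712. This difference was not tested. Without the 2 tumors farthest from the median the median r was 0.375 in AB1 IPL, 0.616 in AB1 SC, 0.398 in AE17 IPL and 0.723 in AE17 SC tumors. AB1 IPL thus went from the highest to the lowest, so its place rests on extreme tumors, while the other groups kept their order. AB1 IPL replicates 2 and 8 were the highest and the lowest of their group for 9 and 8 of the 9 genes. With the mean log2 level of the macrophage markers, C1qa passed in 2 groups, AB1 SC (r = 0.96, rho = 0.976) and AE17 SC (r = 0.964, rho = 0.976), and its r was 0.645 and 0.263 in the IPL tumors of AB1 and AE17. C3ar1 passed in AE17 SC (r = 0.962, rho = 0.976) and AB1 IPL tumors (r = 0.878, rho = 0.738), and C1s1 in 0 groups. C1qb and C1qc passed in the SC tumors of both models (r of 0.854 to 0.939), C3 in AB1 SC (r = 0.877, rho = 0.905) and Cfb in AE17 SC tumors (r = 0.893, rho = 0.952). With the fibroblast markers C4b (r = 0.907, rho = 0.905), C3 (r = 0.885, rho = 0.786) and Cfb (r = 0.79, rho = 0.786) passed in AB1 IPL tumors, and C3 (r = 0.851, rho = 0.667) and C1s1 (r = 0.935, rho = 0.976) in AE17 IPL tumors. Of these 5, C4b and C1s1 also passed by rho (exact permutation, adjusted p = 0.0365 and 0.0123). C3ar1 passed with the fibroblast markers in 0 groups (r of -0.327 to 0.089).

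**Figure D4:**
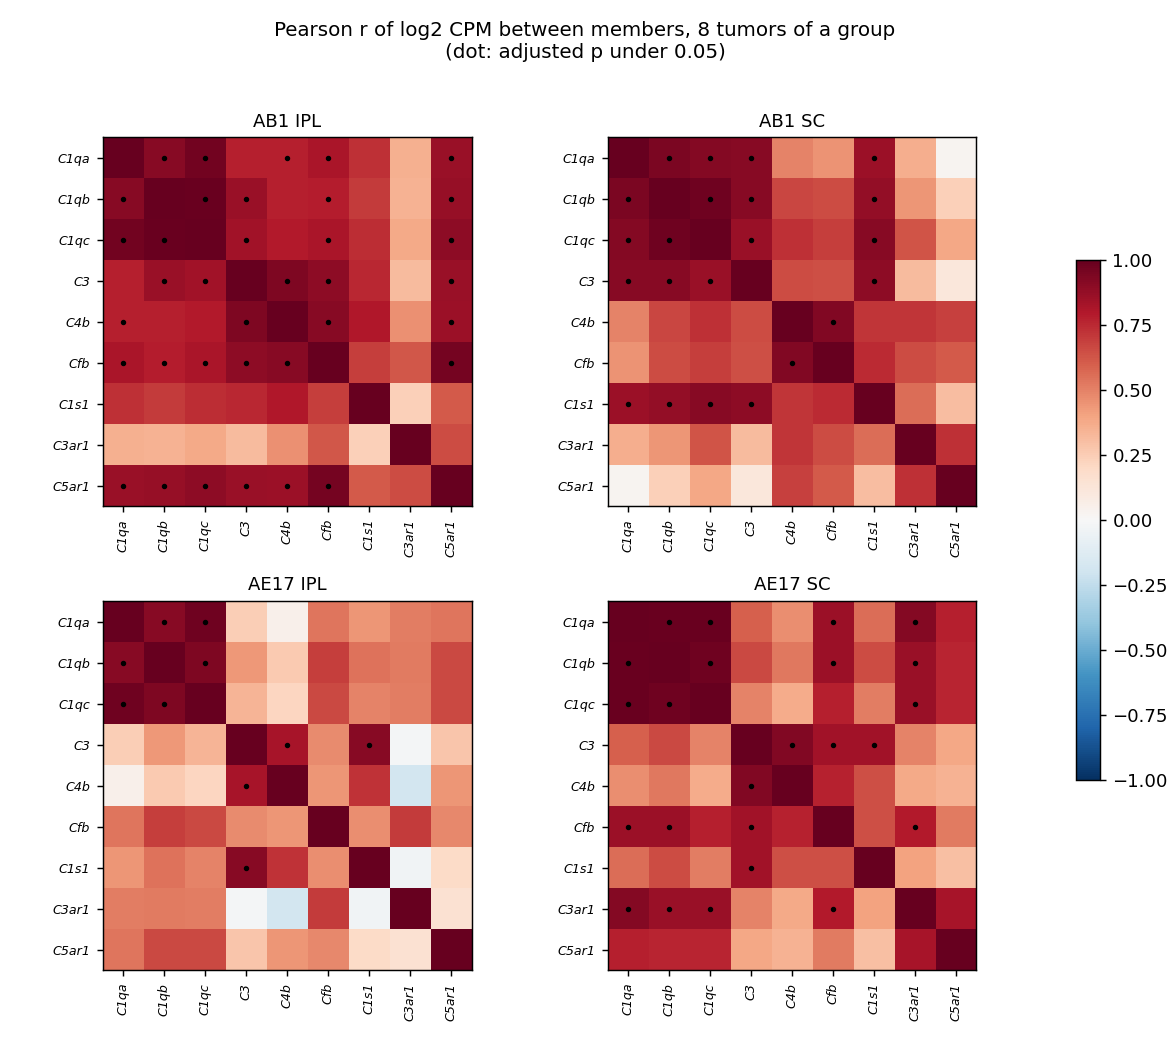
Pearson's r of log2 CPM for each pair of the 9 genes over the 8 tumors of each group, in color from -1 (blue) to 1 (red), with a dot where the adjusted p is under 0.05 by exact permutation. The block of the C1q chains is at 0.908 or above in all 4 groups, and the median over the pairs of AB1 IPL tumors, 0.79 in this plot, is 0.375 without the 2 farthest tumors of each pair.

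For each gene the 3 genes with the most alike variation were sought by Pearson's r of log2 CPM over the 32 tumors after the group means had been removed, among 9714 genes averaging at least 10 CPM; these r are a description and share libraries and depth. Fcer1g, the signaling chain of activating Fc receptors, was among the nearest of all C1q chains (0.905 with C1qa, 0.897 with C1qb and 0.915 with C1qc), as was Itm2c (0.889, 0.909 and 0.89). Saraf (0.894 with C1qa), Tnfaip8l2 (0.909 with C1qb) and Lrrc25 (0.89 with C1qc) completed their lists. C3 was nearest to Smpdl3a (0.913), Creg1 (0.913) and Serping1 (0.91), which encodes the C1 inhibitor. C4b was nearest to its paralog C4a (0.999), whose value can include shared reads, then to the alarmin gene Il33 (0.896) and the phospholipid transfer protein gene Pltp (0.875).

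Cfb was nearest to the myeloid genes Pirb (0.912), Bst1 (0.899) and Vsir (0.897), of which Pirb and Vsir encode inhibitory receptors. C1s1 was nearest to C1s2 (0.997), again with shared reads, and to C1rb (0.922) and C1ra (0.921), the genes of its partner protease C1r. The receptors had looser neighbors. C3ar1 was nearest to Ms4a6d (0.829), A930011G23Rik (0.776) and Lyn (0.773), and C5ar1 to Slc7a7 (0.798), Tmem261 (0.782) and Cln8 (0.772). Within single groups r ranged from -0.109 to 0.972 for Slc7a7 and from -0.103 to 0.94 for Cln8, so these neighbors did not vary with C5ar1 in every group.

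Of 42 other complement genes on a list, 34 had a row in the table. In AB1 25 were tested, and 5 were higher and 7 lower at the IPL site, against 12.3% and 10.7% of all genes, with a median log2 fold change of -0.02 (all genes -0.00). Of 9 regulators tested 4 were higher, among them Clu and Vtn, inhibitors of the terminal pore, and the membrane inhibitor Cd59a. The lower genes included C1s2 and the integrin chains Itgax and Itgb2, which form complement receptors of leukocytes.

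Clu ran from 18.91 through 77.16 to 210.4 CPM in AB1 IPL and from 5.873 through 8.413 to 11.84 CPM in AB1 SC tumors, without overlap, a log2 fold change of 3.31 ± 0.43 (SE; edgeR, adjusted p = 6.5e-05). Vtn ran from 2.324 through 7.818 to 12.46 CPM against 0.7173 through 0.8152 to 1.317 CPM, again without overlap (3.13 ± 0.31, adjusted p = 9.01e-06). Cd59a ran from 7.813 through 9.572 to 10.04 CPM against 2.975 through 4.589 to 5.934 CPM (1.02 ± 0.13, adjusted p = 3.84e-05). These 3 regulators, named for the size of their change, thus did not overlap between the AB1 sites, with IPL tumors higher. The share of all genes without overlap between the AB1 sites was not determined.

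Itgax fell from 50.63 through 112.7 to 158 CPM at the SC site to 20.2 through 22.57 to 34.26 CPM at the IPL site (-2.15 ± 0.22, adjusted p = 9.01e-06 by edgeR), without overlap. Itgb2 ran from 92.64 through 123.5 to 185.7 CPM at the IPL and from 180.9 through 212.8 to 302 CPM at the SC site (-0.88 ± 0.14, adjusted p = 0.000346). By role, 4 of 8 tested genes of the classical and lectin start were lower in AB1 (10.7% of all genes), namely C1s2, C1ra, C1rb and C2, the last 3 named after their values were seen. Within lane 3 Itgax (-2.31) and Cd59a (1.15) passed the test, while Clu (3.19), Vtn (3.10), Itgb2 (-0.83) and C1s2 (-0.76) did not. For C1ra and C1rb, 48.0% and 59.2% of the 50-base windows occur in the other of the pair.

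In AE17 23 of the 34 were tested, and Clu alone passed, higher at the IPL site, against 2.6% of all genes higher (110.6 through 177.1 to 432 CPM against 73.03 through 98.04 to 115.9 CPM, log2 fold change 1.06 ± 0.22, edgeR adjusted p = 0.0159; 0.84 and also past the threshold within lane 1). None was lower, also at an unadjusted p under 0.05 and by DESeq2 and weighted limma voom (0 each). The interaction term passed for 5 of the 27 tested, 2 more positive in AB1 (11.9% of all genes) and 3 more negative (8.62% of all genes). These were Clu (2.27), Vtn (2.16), Itgax (-1.82), Itgb2 (-1.14) and the properdin gene Cfp (-0.67, chosen after its value was seen), with adjusted p of 0.00131, 0.0094, 0.000286, 0.00137 and 0.0112 by edgeR. With lane as a covariate Itgax kept this call (-1.89, adjusted p = 0.0442) and Clu, Vtn and Itgb2 did not.

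**Figure D5:**
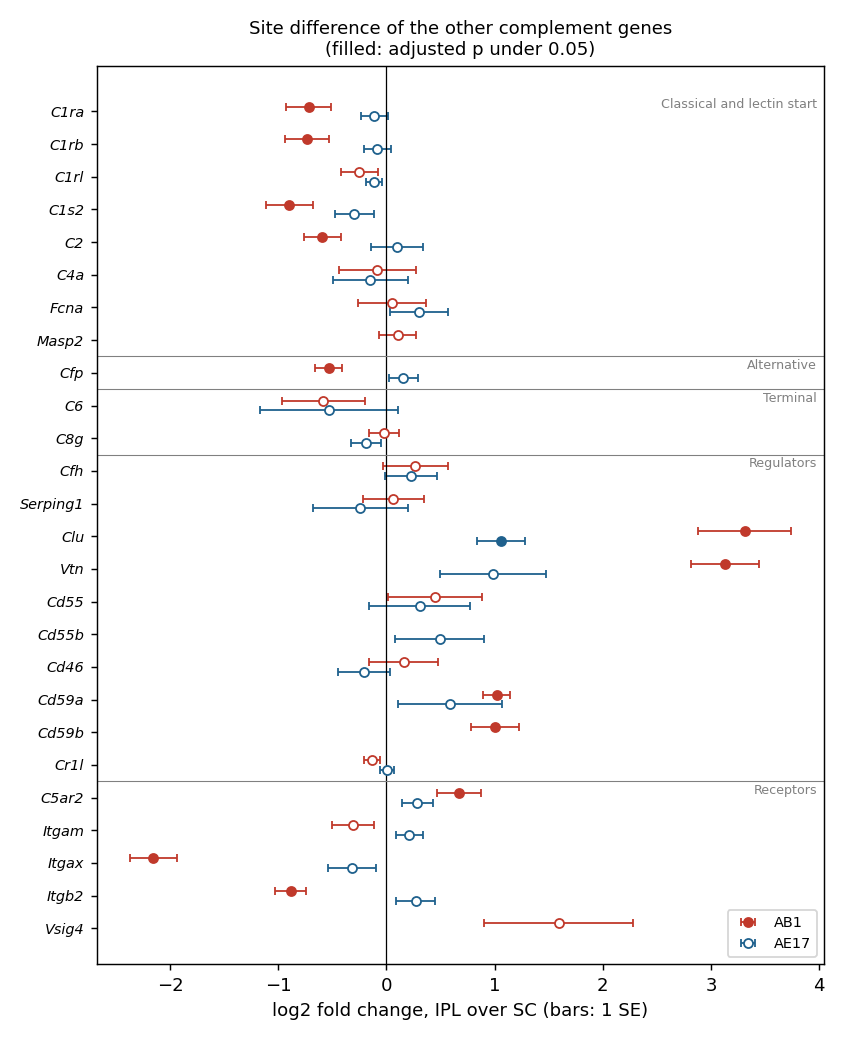
Log2 fold change of IPL over SC tumors (horizontal axis, bars of 1 SE) in AB1 and AE17 for the other complement genes tested, grouped by role, with filled points for an adjusted p under 0.05 by edgeR. Clu (3.31) and Vtn (3.13) lie farthest to the right and Itgax (-2.15) farthest to the left, all in AB1, and Clu (1.06) is the filled point of AE17.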

How the data were processed

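Whole tumors (32, 8 per group) were measured by sequencing of polyadenylated RNA with 50-base single-end reads. The authors aligned reads with HISAT2 (2.0.4, per the labels, with bcl2fastq 1.8.4 for base calls) and deposited raw counts per gene, with no normalization. Whether counting used strand was not given in the sources used here. The identifiers of all 9 members, versions included, matched GENCODE M21, whose GRCm38 coordinates were used; some other rows carried another version. All 9 members passed the filter on low counts in every comparison.

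Counts were tested with edgeR 4.0.16 (R 4.3.3, TMM, filterByExpr, robust quasi-likelihood F test, two-sided, Benjamini-Hochberg over all genes tested, adjusted p under 0.05), within a model for site and over all 32 tumors in 1 fit of 4 groups for the interaction and for the models. Per-tumor CPM used TMM library sizes; log2 CPM used a prior count of 2. Fold changes are on the log2 scale, with 95% intervals from the SE. Relations used all 40320 pairings and ratios all 12870 splits of 8 against 8. Alternatives were DESeq2 1.42.0, limma 3.58.1 (voom with sample quality weights), other scalings and filters, lane, marker scores, the replicate number as a block, and omission of each tumor. The scripts were tested on simulated data. No 2 libraries of a group were copies, as counts of all 112 pairs differed by more than sampling noise. Depth of 15432258 to 20649645 counts puts 3 counts at 0.1404 to 0.1887 CPM.

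Named were all 9 members, at most 6 other complement genes per model (past the threshold, mean of at least 1 CPM, largest change first), the 3 nearest genes per member and at most 3 genes of a marker list; C1ra, C1rb, C2 and Cfp were named outside this rule. The members and lists were chosen with earlier results of these data known.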

Additional observations from a re-analysis of the deposited data

Results flagged for a closer look

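In 48 sets of 8 tumors (the levels of 9 genes and 3 C1q ratios in each group), the highest or lowest tumor was examined for its distance from the rest, and chance alone gives such a distance in about 1 in 20 sets. Cfb was at 19.4 CPM in AB1 IPL replicate 2, the next tumor being at 6.35 CPM, and at 2.92 CPM in AE17 SC replicate 8, the next being at 9.62 CPM. In AB1 IPL replicate 6 the ratios of C1qa to C1qb (0.97, next 1.25), C1qa to C1qc (1.06, next 1.24) and C1qc to C1qb (0.914, next 1.01) were each far below those of the other 7 tumors. In the same tumor the ratios of C1s2 to C1s1 (0.4053) and C4a to C4b (0.4362) lay with the group.

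The effect of the site differed between AB1 and AE17 by the interaction term of edgeR for 8 genes named by the rule, and for Cfp. Of these 8, Itgax alone kept its call with lane as a covariate. On the log2 scale the AB1 effect was more negative for C1qa (-0.67), C1qc (-0.61), Cfb (-1.28), C3ar1 (-0.57), Itgax (-1.82), Itgb2 (-1.14) and Cfp (-0.67), and more positive for Clu (2.27) and Vtn (2.16).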

How the results depend on the processing

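Counts of called members in AB1 (4 as reported) were 6 with limma voom with sample quality weights (31.5% of all genes called), 2 with no filter on low counts, 0 with lane as a covariate, 0 within lane 3, 0 with the muscle, fat and lung scores and 1 with the macrophage score. In AE17 the reported call of C5ar1 became 5 calls with weighted limma voom and 0 with DESeq2 size factors, total counts, no filter, all 32 tumors in 1 fit, lane as a covariate, 1 lane or the tissue scores. The 4 calls of the interaction became 6 with weighted limma voom (29.4% of all genes) and 0 with lane as a covariate. Calls over all genes moved as well. In AB1 they went from 23% of the genes tested to 13.5% with no filter, 2.64% with lane, 1.06% within lane 3, 4.38% with the tissue scores and 6.51% with the macrophage score, in AE17 from 5.73% to 27% with weighted limma voom, 1.93% with no filter, 0.00682% with lane, 0.0911% within lane 1 and 0.252% with the tissue scores, and in the interaction from 20.5% to 0.746% with lane. The cause of the shifts was not tested. With the macrophage score C1qa (0.019), C1qb (0.186), C1qc (0.114), C3 (0.766) and C4b (0.866) changed sign in AB1. C4b also changed sign there with lane as a covariate (0.425) and within lane 3 (0.375), and with weighted limma voom in the interaction (-0.296) and between IPL tumors of the models (-0.059). Cfb between SC tumors of the models went to 0.034 with weighted limma voom and 0.011 with total counts. Between the models 4 to 5 members at the SC and 5 to 7 at the IPL site were called under every setting but the omissions of a tumor, where 34.5% to 69.7% and 38.3% to 67.3% of all genes were.

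Same-numbered tumors had correlated deviations in no consistent way (r from -0.317 to 0.01 in AB1 and -0.259 to 0.288 in AE17, where the mean was 0.087 against -0.007 for other pairings and 2 of 8 IPL tumors correlated best with their own number). Whether same-numbered tumors were paired in the experiment is not given by the labels and cannot be told from these correlations. With the replicate block 4 members were called in AB1, 0 in AE17 and 3 in the interaction, where C4b was at -0.194, and 15.5%, 4.51% and 15.3% of all genes were called.

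Leaving out 1 tumor gave 2 to 6 called members in AB1 and 0 to 2 in AE17, the 6 being without AB1 IPL replicate 2 and the 2 without AE17 SC replicate 3. In AB1 the call of C1qa held only without AB1 IPL replicate 2 or 4 or AB1 SC replicate 1 or 3, and that of Cfb only without AB1 IPL replicate 2 or AB1 SC replicate 1. The call of C5ar1 in AE17 held only without AE17 SC replicate 1, 3 or 4. Cfb lost its interaction call without AB1 IPL replicate 1 or 7, AB1 SC replicate 5, AE17 IPL replicate 8 or AE17 SC replicate 6. Changes that crossed 0 were those of C4b in AB1 (-0.573 to 0.053), in AE17 (-0.445 to 0.062), in the interaction (-0.474 to 0.362) and between the models at the SC (-0.035 to 0.273) and IPL sites (-0.364 to 0.471), of C3 in AE17 (-0.212 to 0.481), of Cd59a in AE17 (-0.076 to 0.77), and between SC tumors of Cfb (-0.18 to 0.114) and C3ar1 (-0.037 to 0.093). Of 1152 such values of the 9 members 1060 kept their sign and their side of the threshold, as did 356 of 414 under the other settings. Of the relations, 61 passed with a prior count of 0.5 and 58 with total counts.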

Other observations

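In AE17 the tumors with the lowest complement levels were AE17 IPL replicate 3 and AE17 SC replicate 8, each the lowest of its group for 6 of 9 genes. In AB1, IPL replicate 8 was the lowest of its group for 8 of 9 genes and SC replicate 5 the highest for 7. The ratio of C1s2 to C1s1, near copies that share reads, was 0.395 and 0.386 in AB1 IPL and SC tumors and 0.299 and 0.3 in AE17 IPL and SC tumors.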
